A study of Mus musculus with 30 samples.

Results

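The genes described here were the 10 genes of the mouse MHC class II pathway that encode its master regulator, its chains and its dedicated chaperones: Ciita, H2-Aa, H2-Ab1, H2-Eb1, Cd74, H2-DMa, H2-DMb1, H2-DMb2, H2-Oa and H2-Ob. They were picked by name, as the members of 1 pathway, with earlier results of these data known. All 10 were among the 13353 genes of the bone marrow (BM) count table and the 17059 genes of the adipose tissue macrophage (ATM) count table, and all 10 passed the low-count filter in both tissues.

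MHC class II molecules are pairs of an alpha and a beta chain that display peptides from endosomes to CD4+ T cells, and they are made mainly by B cells, dendritic cells and activated macrophages. CIITA does not bind DNA itself but is recruited to class II promoters by the RFX, CREB and NF-Y proteins, and its own gene is switched on by interferon-gamma in macrophages and by separate promoters in dendritic cells and B cells. The invariant chain CD74 escorts new class II pairs and fills their groove, H2-DM then exchanges the remnant of CD74 for peptide, and H2-DO, found chiefly in B cells, restrains H2-DM.

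The 5 groups were compared within each of 2 tissues, whole BM cells and F4/80+ sorted macrophages of visceral adipose tissue, with 3 libraries a group and 30 libraries in all. The labels call the libraries biological replicates from 3 mice a group. WT recipients were C57BL/6 mice, and the other recipients were leptin-deficient Ob/Ob mice on a C57BL/6J background that received Vehicle, the GLP-1R agonist beinaglutide at 3 mg/kg under the skin, an anti-IL-17A antibody at 200 µg per mouse into the peritoneum 3 times a week, or both agents (Combo). Treatment began 8 weeks after transplantation and ran for 30 days. Per the protocol, recipients in every group were irradiated with 700 and then 400 cGy and given bone marrow of Shp2E76K/+;LysM-Cre+ donors, in which the Cre driver acts in myeloid cells and turns on an activating mutation of the phosphatase SHP2, mixed in equal cell numbers with Boy/J competitor marrow. By the protocol the control groups therefore carry the mutant donor cells too, but the study also describes its ATM comparison as one of mutant with WT donor cells, so the donor of the WT ATM libraries is uncertain. The blood cells of a library can come from mutant donor, competitor or surviving recipient cells. No label ties a library to its donor, and the labels list the genotype C57BL/6J for every library, name no treatment for WT, and describe mice of 12 to 14 weeks and both sexes. IL-17A is a cytokine of Th17 and gamma-delta T cells, and GLP-1R agonists are used against diabetes and obesity. WT against Vehicle thus differs in the host by the protocol and in the vehicle injections, which no label gives for WT, and in ATMs possibly in the donor, and these cannot be told apart. Each treatment against Vehicle differs in the agent.

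In the GRCm38 build Ciita lies on the plus strand of chromosome 16 at 10480059 to 10528418, and all others but Cd74 lie within the H2 region of chromosome 17, from H2-Oa starting at 34092340 to H2-Eb1 ending at 34316674. Within that region H2-DMa (34119541 to 34139101), H2-DMb2 (34143307 to 34151555) and H2-DMb1 (34153072 to 34160230) stand in a row, followed by H2-Ob (34238903 to 34254414), H2-Ab1 (34257689 to 34269419) and H2-Aa (34282744 to 34287823), the last of which is the only gene of that region among the 10 on the minus strand. H2-DMb1 and H2-DMb2 are near copies: 369 of the 1629 stretches of 50 bases in H2-DMb1 transcripts also occur in H2-DMb2. The study counted only uniquely mapped reads, so reads that fit both genes equally were left out of both counts. Each count thus covers only part of its gene. Reads were counted without strand, and by the study's settings a read counts in every gene it overlaps. Overlaps with other genes cover 321 exon bases (22.8%) of H2-Oa (antisense gene BC051537), 360 (10.4%) of H2-DMa (Brd2) and 329 (3.5%) of Ciita (Dexi). Reads there cannot be assigned to 1 gene and can add to the counts of both.

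Class II promoters are known for a shared layout, an X box bound by RFX and, downstream of it, a Y box bound by NF-Y, and the sequences are shown because CIITA is recruited through this layout. RefSeq promoter windows (GRCm38.p6, from 250 bases before to 50 after a gene's start) were matched by symbol for 7 of the 10 genes, H2-Oa, H2-DMa, H2-DMb2, H2-DMb1, H2-Ob, H2-Aa and H2-Eb1, and not for Ciita, H2-Ab1 and Cd74. The searched pattern, chosen after these windows had been read, was GNAAC followed by GATTGG with 25 to 38 bases between their first bases, within the 250 bases before the start. On the gene's own strand, 5 genes held it, against 0.371% of all 32851 windows in the table on the gene strand and 0.679% on either strand, and GATTGG alone was present in 14.6% of windows on either strand. The sequences are given on the gene's strand with both elements in capitals, and H2-DMb2, which held GATTGG without GNAAC in the matching place, is set beside its near copy H2-DMb1.
H2-Oa, chr17:34092295-34092348, plus strand: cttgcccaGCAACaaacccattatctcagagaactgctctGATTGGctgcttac
H2-DMb1, chr17:34153089-34153142, plus strand: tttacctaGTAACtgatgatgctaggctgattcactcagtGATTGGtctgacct
H2-DMb2, chr17:34145118-34145171, plus strand: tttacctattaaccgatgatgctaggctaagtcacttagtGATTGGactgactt
H2-Ob, chr17:34238810-34238860, plus strand: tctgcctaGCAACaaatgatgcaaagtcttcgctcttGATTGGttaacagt
H2-Aa, chr17:34287859-34287912, minus strand: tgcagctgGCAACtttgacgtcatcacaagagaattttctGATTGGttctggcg
H2-Eb1, chr17:34305768-34305820, plus strand: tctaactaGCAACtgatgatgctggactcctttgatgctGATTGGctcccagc
The first bases of the 2 elements lay 29 bases apart in H2-Ob, 31 in H2-Eb1 and 32 in H2-Oa, H2-DMb1 and H2-Aa. A match is a description of the letters and says nothing of binding in these cells.

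Library totals ranged from 31086184 to 39925495 counts in BM and from 24876074 to 45300263 in ATMs, and the genes described here held between 51 and 300269 counts in a library. Levels are given as CPM, a gene's counts scaled to the library total with TMM factors. A gene was called higher or lower in edgeR's quasi-likelihood test when its Benjamini-Hochberg adjusted p over all genes of the table was under 0.05 and its log2 fold change beyond 1, and only such genes are said to have risen or fallen. The spread over a group was small: the median coefficient of variation over the 10 genes and 5 groups was 3.58% in BM and 4.68% in ATMs. SEs and p-values rest on this spread between libraries. Whether it holds the full spread between mice was not tested.

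The labelled cell types were checked with marker sums. Neutrophil markers summed to 70200 to 115000 CPM in the BM libraries. In the ATM libraries the macrophage markers summed to 2470 to 2580 CPM in WT, 1680 to 1790 in Vehicle, 4900 to 5050 with the GLP-1R agonist, 7220 to 7400 with anti-IL-17A and 3940 to 4030 in Combo, and Adgre1, which encodes the sorted antigen F4/80, averaged 208.3, 42.3, 389.9, 874.9 and 400.3 CPM in that order. Markers of other cells were present in the ATM libraries: neutrophil markers at 19300 to 20500 CPM in Vehicle and 10100 to 10500 in Combo against 160 to 347 elsewhere, stromal and endothelial markers at 4480 to 14100, erythroid markers at 6660 to 6770 in Vehicle, 5260 to 5410 in Combo, 3840 to 4060 in WT and 1140 to 1500 with the single agents, epididymis markers at 2970 to 3120 in WT against at most 159 elsewhere, and pancreatic acinar markers at 850 to 865 in Combo against at most 27 elsewhere. The ATM groups thus differed in their mix of transcripts, and the part of that mix in the results below was not tested.

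In ATMs the mean level of every class II gene except H2-Oa was lowest in Vehicle. All 10 genes fell in Vehicle against WT, where 22.9% of all ATM genes were called lower and 12.5% higher, with a median log2 fold change of -2.36 over the 10 genes and -0.21 over all genes. Each treatment was then higher than Vehicle: 7 genes rose with the GLP-1R agonist (20.8% of all genes rose and 10.9% fell), 8 with anti-IL-17A (22.4% rose and 13.1% fell) and 8 in Combo (14.1% rose and 12.2% fell). None of the 10 genes was called in the other direction in these 4 comparisons by edgeR or DESeq2, and at an unadjusted p under 0.05 the number in that direction was also 0. The 3 treatment comparisons share the Vehicle libraries, which are also 1 side of the comparison with WT, so their directions are not independent of each other.

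**Figure D1:**
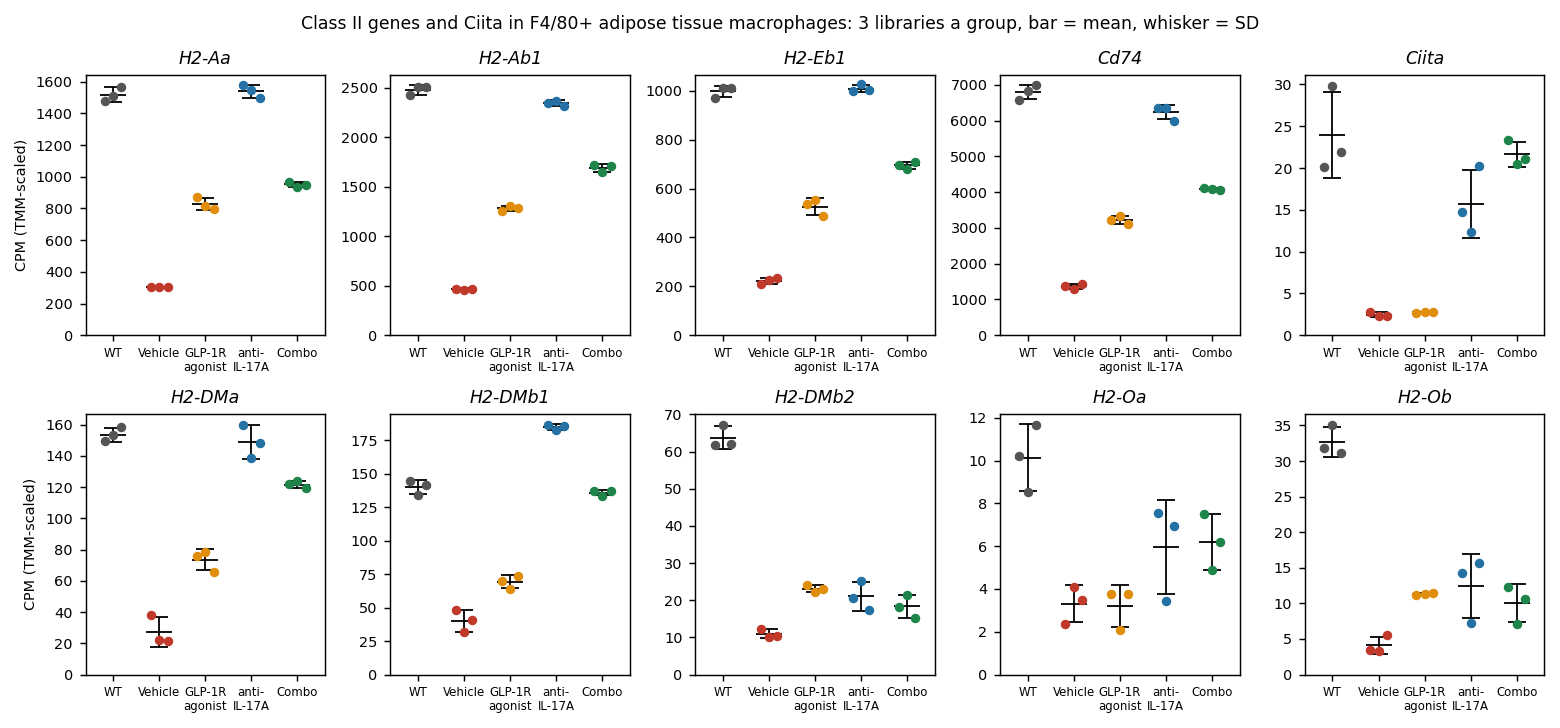
Levels of the 10 genes in the ATM libraries, in TMM-scaled CPM on linear axes from 0, by group. Points are the 3 libraries of a group, bars the mean and whiskers the SD. The Vehicle mean is lowest in every panel except that of H2-Oa, and for Ciita and H2-Oa it lies beside the GLP-1R agonist (2.474 against 2.722 and 3.306 against 3.197 CPM).

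H2-Ab1 encodes the beta chain of I-A, the class II molecule that C57BL/6 mice display. In ATMs its levels were 2422, 2510 and 2504 CPM in WT and 470, 461.7 and 471.8 CPM in Vehicle. With the GLP-1R agonist they were 1258, 1307 and 1280, with anti-IL-17A 2347, 2367 and 2311, and in Combo 1716, 1648 and 1707 CPM. The 5 groups did not overlap, and their order was WT, anti-IL-17A, Combo, GLP-1R agonist and Vehicle. The level in WT was 5.3 times that in Vehicle (log2 fold change -2.41 ± 0.0279 SE, adjusted p = 2.46e-18 by edgeR). Against Vehicle it rose 2.74-fold with the GLP-1R agonist, 5-fold with anti-IL-17A and 3.61-fold in Combo (log2 fold changes 1.45, 2.32 and 1.85).

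H2-Aa, the I-A alpha chain, followed the same order except at the top. Its ATM levels were 1478, 1511 and 1568 CPM in WT, 304.1, 305.6 and 302 in Vehicle, 870, 818.1 and 798 with the GLP-1R agonist, 1578, 1547 and 1496 with anti-IL-17A, and 969.3, 938.3 and 947.1 in Combo. WT and anti-IL-17A overlapped, and no difference beyond their spread was found (log2 fold change 0.02 ± 0.0353, adjusted p = 0.702 by edgeR). Vehicle was 5-fold lower than WT (log2 fold change -2.32 ± 0.0372, adjusted p = 8.4e-17), and the rises over Vehicle were 1.45, 2.34 and 1.65 on the log2 scale for the GLP-1R agonist, anti-IL-17A and Combo.

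H2-Eb1 encodes the beta chain of I-E, whose alpha chain gene H2-Ea was looked for and not found under that symbol in either tissue. C57BL/6 mice are known to carry a defective H2-Ea and to show no I-E on the cell surface, so H2-Eb1 is read here as a transcript only. It averaged 998 ± 23.06 CPM (SD, n = 3) in WT, 222.9 ± 11.58 in Vehicle, 525.8 ± 33.9 with the GLP-1R agonist, 1009 ± 14.75 with anti-IL-17A and 694.9 ± 13.22 in Combo. It fell by 2.16 on the log2 scale in Vehicle against WT and rose by 1.24, 2.18 and 1.64 over Vehicle with the 3 treatments.

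Cd74, the most abundant of the 10 genes, was at 6584, 6815 and 6991 CPM in WT and at 1364, 1303 and 1437 CPM in Vehicle. The treated libraries lay between, at 3230, 3344 and 3122 CPM with the GLP-1R agonist, 6342, 6347 and 5999 with anti-IL-17A, and 4104, 4089 and 4048 in Combo. The invariant chain thus moved with the classical chains: it fell by 2.31 ± 0.0377 on the log2 scale in Vehicle (adjusted p = 1.16e-16 by edgeR) and rose by 1.24, 2.19 and 1.58 over Vehicle. Anti-IL-17A stayed below WT in every library, but by a log2 fold change of only -0.13.

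Ciita did not follow its target genes in 1 of the treatments. Its ATM levels were 20.17, 29.8 and 21.9 CPM in WT and 2.777, 2.344 and 2.3 CPM in Vehicle, a 9.66-fold lower mean (log2 fold change -3.27 ± 0.228, adjusted p = 5.4e-09 by edgeR). With the GLP-1R agonist the regulator remained at 2.67, 2.735 and 2.761 CPM, overlapping Vehicle (log2 fold change 0.14 ± 0.224, adjusted p = 0.639), while H2-Aa, H2-Ab1, H2-Eb1, Cd74, H2-DMa, H2-DMb2 and H2-Ob rose. With anti-IL-17A it reached 14.7, 12.29 and 20.19 CPM, and in Combo 23.3, 20.52 and 21.06 CPM, rises of 2.66 ± 0.224 and 3.12 ± 0.227 over Vehicle (adjusted p = 5.26e-08 and 1.12e-08). Combo overlapped WT (log2 fold change -0.15 ± 0.202, adjusted p = 0.598). The difference between Combo and the GLP-1R agonist alone was itself tested, and Ciita was the only 1 of the 10 genes called there, 7.93-fold higher in Combo (adjusted p = 2.91e-08), where 5.38% of all genes were called higher.

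The order of the groups therefore differed between the regulator and the chains. For Ciita, Combo and WT stood highest and anti-IL-17A overlapped WT (log2 fold change -0.61, adjusted p = 0.0275), and every Combo library lay above every anti-IL-17A library without passing the test (log2 fold change 0.46 ± 0.202, adjusted p = 0.108 by edgeR). For H2-Aa, H2-Ab1, H2-Eb1 and Cd74, every Combo library lay below every anti-IL-17A library, by log2 fold changes of -0.69, -0.47, -0.54 and -0.61 (adjusted p between 6.77e-10 and 2.73e-07 by edgeR), none of them beyond the limit of 1. Such a separation was found for 6 of the 10 genes and for 25% of all ATM genes.

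H2-DMa and H2-DMb1 encode the 2 chains of the peptide exchange factor H2-DM. H2-DMa was at 149.4, 153.4 and 158.3 CPM in WT and at 38.28, 22.42 and 21.2 CPM in Vehicle, where the first library stood apart from the other 2. Its means were 73.49 ± 6.733, 148.9 ± 10.76 and 121.7 ± 2.326 CPM (SD, n = 3) with the GLP-1R agonist, anti-IL-17A and Combo. H2-DMb1 was at 144.5, 133.8 and 141.8 CPM in WT, 47.82, 31.53 and 40.55 in Vehicle, 69.65, 64.01 and 73.87 with the GLP-1R agonist, 186.5, 182.2 and 185.3 with anti-IL-17A and 137, 133.5 and 136.8 in Combo. Both genes fell in Vehicle (log2 fold changes -2.49 and -1.81) and rose with anti-IL-17A (2.44 and 2.21) and in Combo (2.15 and 1.76). With the GLP-1R agonist H2-DMa rose by 1.42, and H2-DMb1 was higher by 0.79 ± 0.108, under the limit. For H2-DMb1 the Combo mean was close to that of WT (log2 fold change -0.04 ± 0.104, adjusted p = 0.768).

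H2-DMb2, the second DM beta chain gene, was different from H2-DMb1 in its response. In ATMs it stood at 61.69, 67.26 and 62.12 CPM in WT and at 12.36, 10.13 and 10.42 in Vehicle, a fall of 2.54 ± 0.163 on the log2 scale (adjusted p = 2.15e-09 by edgeR). Every treated library lay well below every WT library, with 24.06, 22.17 and 22.91 CPM with the GLP-1R agonist, 20.7, 25.11 and 17.3 with anti-IL-17A, and 18.09, 21.49 and 15.34 in Combo. The rise over Vehicle was called with the GLP-1R agonist (1.07 ± 0.158) and was under the limit with anti-IL-17A (0.94) and Combo (0.74). It was called lower than WT in all 3 treatments, by -1.47, -1.6 and -1.8.

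H2-Oa and H2-Ob encode the chains of H2-DO. H2-Ob was at 31.83, 35.03 and 31.19 CPM in WT, 3.502, 3.317 and 5.502 in Vehicle, 11.22, 11.35 and 11.49 with the GLP-1R agonist, 14.23, 7.287 and 15.69 with anti-IL-17A, and 12.37, 7.156 and 10.57 in Combo. It fell by 2.99 ± 0.299 in Vehicle (adjusted p = 4.47e-07 by edgeR), rose over Vehicle by 1.47, 1.6 and 1.29 with the treatments, and stayed below WT in all 3 (log2 fold changes -1.53, -1.4 and -1.7, all called). The 3 treated groups overlapped each other and lay apart from WT and Vehicle. H2-Oa was at 10.14 ± 1.566 CPM in WT, 3.306 ± 0.8593 in Vehicle, 3.197 ± 0.9659 with the GLP-1R agonist, 5.977 ± 2.201 with anti-IL-17A and 6.189 ± 1.313 in Combo. It fell in Vehicle (log2 fold change -1.62 ± 0.365, adjusted p = 0.00144), overlapped Vehicle with the GLP-1R agonist (-0.04) and with anti-IL-17A (0.85, adjusted p = 0.0537), and in Combo was higher by 0.91 with an adjusted p of 0.0497, close to the threshold.

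At an adjusted p under 0.05 without a limit on the fold change, 8 of the 10 genes were higher than Vehicle with the GLP-1R agonist (31.8% of all ATM genes), 9 with anti-IL-17A (33.1%) and 10 in Combo (25%). Against WT, 7 of the 10 were called lower with the GLP-1R agonist (7.42% of all genes), 2 with anti-IL-17A (9.04%) and 2 in Combo (14.5%), with H2-DMb2 and H2-Ob called in all 3. By adjusted p alone, 6 were lower in Combo than in WT (23.2% of all genes). Ciita, H2-DMa and H2-DMb1 were lower with the GLP-1R agonist than with anti-IL-17A (3.22% of all genes), by -2.53, -1.02 and -1.42.

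Markers of class II-bearing cells moved with these genes in part. B cell markers summed to 435 to 517 CPM in WT ATM libraries, 133 to 145 in Vehicle, 315 to 319 with the GLP-1R agonist, 333 to 343 with anti-IL-17A and 264 to 283 in Combo, and 8 of 10 fell in Vehicle against WT. Conventional dendritic cell markers summed to 520 to 558, 309 to 370, 485 to 534, 501 to 513 and 275 to 300 CPM in the same order, and Cd209a, a marker of monocyte-derived dendritic cells, was at 0 in all 3 Vehicle libraries and at 20.43 ± 3.262 CPM in WT. Zbtb46, a transcription factor of conventional dendritic cells, was higher in Vehicle, at 62.72 CPM against 24.63 (log2 fold change 1.35 ± 0.181), and over the 9 markers 1 rose and 3 fell. Of 9 macrophage markers 4 fell and 2 rose in Vehicle, among them Csf1r, the receptor for the macrophage growth factor, at 546.9 CPM in WT and 47.58 in Vehicle, and Cd68, a lysosomal glycoprotein, at 261.6 and 526.2. Of all ATM genes, 22.9% fell and 12.5% rose in Vehicle against WT, so the dendritic cell counts lie near the background. In these bulk libraries fewer class II-positive cells and less class II RNA per cell cannot be told apart.

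In BM the class II genes ran in another direction under treatment. They were highest in WT, lower in Vehicle and lowest in Combo. Vehicle was lower than WT in all libraries for all 10 genes, as it was for 38.3% of all BM genes, but only Ciita, H2-DMb2 and H2-Ob passed the fold limit, where 10% of all BM genes were called lower and 9.44% higher. By adjusted p alone all 10 were lower (38.8% of all genes). Against Vehicle, 6 of the 10 fell with the GLP-1R agonist (9.08% of all genes), 1 with anti-IL-17A (8.46%) and 8 in Combo (11.1%), and none rose by edgeR or DESeq2. At an unadjusted p under 0.05 only H2-Ob was higher in any of these, with anti-IL-17A. In Combo against WT all 10 fell (9.93%), with a median log2 fold change of -2.8 beside -0.02 over all genes.

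**Figure D2:**
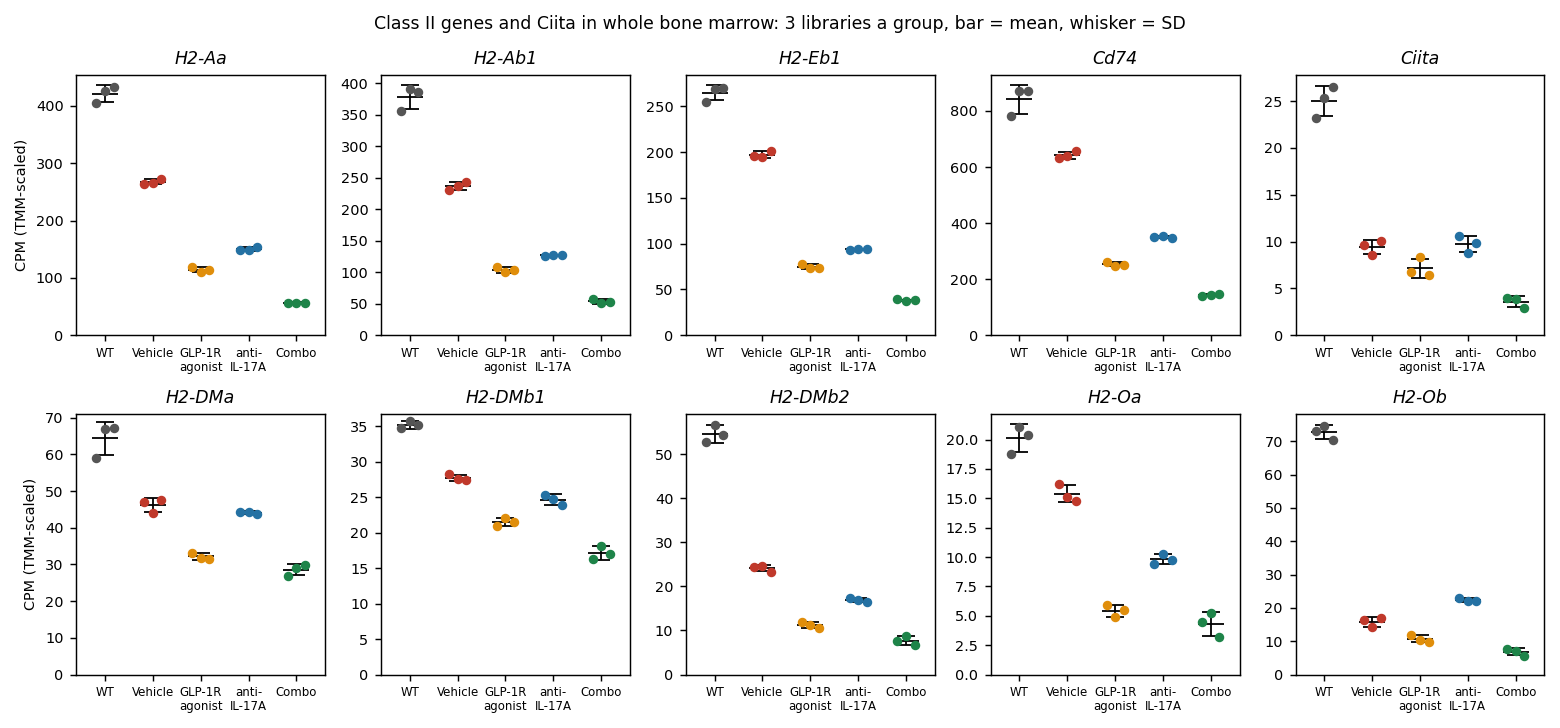
Levels of the 10 genes in the whole BM libraries, in TMM-scaled CPM on linear axes from 0, by group. Points are the 3 libraries of a group, bars the mean and whiskers the SD. WT lies highest and Combo lowest in every panel, as for H2-Aa at 421.3 and 56.43 CPM.

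H2-Aa was at 405.4, 426.1 and 432.5 CPM in WT, 264, 265.4 and 272.6 in Vehicle, 118.5, 110.4 and 114.5 with the GLP-1R agonist, 148.3, 149 and 153.4 with anti-IL-17A, and 57.02, 55.65 and 56.62 in Combo. The 5 groups did not overlap. Vehicle was lower than WT by 0.66 ± 0.0278 on the log2 scale, under the limit, and against Vehicle H2-Aa fell by 1.22 with the GLP-1R agonist and 2.24 ± 0.0314 in Combo (adjusted p = 1.56e-40 by edgeR). With anti-IL-17A the log2 fold change was -0.83.

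The other classical genes kept this order. H2-Ab1 averaged 377.5 ± 18.76 CPM (SD, n = 3) in WT, 236.7 ± 6.393 in Vehicle, 103.5 ± 4.021 with the GLP-1R agonist, 126.8 ± 0.5191 with anti-IL-17A and 53.78 ± 3.636 in Combo. H2-Eb1 averaged 264.7, 197.2, 74.67, 93.85 and 38.26 CPM. It was the only gene of the 10 past the fold limit against Vehicle with anti-IL-17A (log2 fold change -1.07 ± 0.031, adjusted p = 3.78e-29 by edgeR), where 8.46% of all BM genes fell. H2-Ab1, Cd74 and H2-Aa lay short of the limit there, at -0.9, -0.88 and -0.83. Cd74 averaged 840.9, 641.8, 253.7, 349.9 and 144.4 CPM. From Vehicle to Combo, H2-Ab1 fell 4.4-fold, H2-Eb1 5.15-fold and Cd74 4.44-fold.

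Ciita was at 23.24, 25.35 and 26.47 CPM in WT and at 9.639, 8.604 and 10.02 CPM in Vehicle. It fell by 1.41 ± 0.0941 (adjusted p = 1.48e-16 by edgeR), more than the classical chains and Cd74, whose log2 fold changes ran from -0.67 to -0.39. The treated libraries were at 6.703, 8.331 and 6.397 CPM with the GLP-1R agonist, 10.58, 8.803 and 9.843 with anti-IL-17A, and 3.959, 3.862 and 2.876 in Combo. Anti-IL-17A overlapped Vehicle (log2 fold change 0.05 ± 0.102, adjusted p = 0.682), while H2-Aa, H2-Ab1, H2-Eb1 and Cd74 were lower than Vehicle there by 0.83 to 1.07 on the log2 scale. In Combo Ciita fell by 1.4 ± 0.121 against Vehicle.

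Of all BM comparisons, H2-DMa and H2-DMb1 were called only in Combo against WT. H2-DMa averaged 64.39, 46.23, 32.18, 44.14 and 28.58 CPM in WT, Vehicle, GLP-1R agonist, anti-IL-17A and Combo, and H2-DMb1 averaged 35.24, 27.77, 21.52, 24.68 and 17.13 CPM. Neither was called in any treatment against Vehicle, with log2 fold changes from -0.70 to -0.07. H2-DMb2 again departed from H2-DMb1, with 52.68, 56.62 and 54.29 CPM in WT, 24.39, 24.64 and 23.29 in Vehicle, 11.87, 11.2 and 10.48 with the GLP-1R agonist, 17.46, 16.88 and 16.51 with anti-IL-17A, and 7.622, 8.727 and 6.801 in Combo. It fell by 1.18 ± 0.0595 in Vehicle against WT, and by 1.11 and 1.64 with the GLP-1R agonist and Combo against Vehicle.

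The 2 chains of H2-DO did not move in parallel in BM. H2-Ob was at 73.14, 74.54 and 70.46 CPM in WT and 16.28, 14.19 and 16.91 in Vehicle, the strongest fall of the 10 genes (log2 fold change -2.21 ± 0.068, adjusted p = 1.19e-26 by edgeR), while H2-Oa was at 18.79, 21.11 and 20.41 CPM in WT and 16.18, 15.11 and 14.81 in Vehicle (-0.39 ± 0.0893). With anti-IL-17A H2-Ob was at 23.11, 21.99 and 22.11 CPM, higher than Vehicle in every library by 0.51 ± 0.0736 (adjusted p = 1.38e-07), and H2-Oa was lower, at 9.444, 10.27 and 9.765 CPM (-0.64 ± 0.0954). With the GLP-1R agonist H2-Oa fell by 1.5 to 5.432 ± 0.5118 CPM, and in Combo H2-Oa and H2-Ob fell by 1.84 and 1.21.

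By adjusted p alone, all 10 BM genes were lower than Vehicle with the GLP-1R agonist (36.3% of all genes) and in Combo (35.8%), and with anti-IL-17A 7 were lower (36.6%) and 1, H2-Ob, was higher (36.4%). Against WT, 8 were called lower with the GLP-1R agonist (8.62%) and 8 with anti-IL-17A (4.02%), the exceptions being H2-DMa and H2-DMb1 in both. Combo was lower than anti-IL-17A for 8 genes (4.63% of all genes) and lower than the GLP-1R agonist for Ciita and H2-Aa (8.57%), by log2 fold changes of -1.01 and -1.02. H2-Ob was the only gene called between the GLP-1R agonist and anti-IL-17A, 2.08-fold lower with the agonist (3.41% of all genes).

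B cell markers moved with the BM genes in part. They summed to 1340 to 1360 CPM in WT, 398 to 415 in Vehicle, 135 to 136 with the GLP-1R agonist, 412 to 417 with anti-IL-17A and 127 to 130 in Combo. The classical chains and Cd74 together summed to 1800 to 1960, 1320 to 1370, 532 to 565, 717 to 724 and 287 to 296 CPM. From Vehicle to anti-IL-17A the class II sum was thus lower while the B cell sum overlapped. Of 10 B cell markers 0 fell and 1 rose there, where 8.46% of all BM genes fell. Conventional dendritic cell markers summed to 87.4 to 95, 67.6 to 72.1, 55.7 to 59.2, 65.3 to 66.5 and 39.8 to 40.5 CPM. Macrophage markers summed to 492 to 523, 718 to 735, 473 to 475, 417 to 422 and 295 to 298 CPM. Monocyte markers summed to 1990 to 2060, 4090 to 4200, 1150 to 1170, 1890 and 1990 to 2010 CPM. Both sums were thus lower with anti-IL-17A than in Vehicle, but also lower in WT, where the class II sum was higher. From Vehicle to anti-IL-17A, 3 of 9 macrophage markers fell and 1 rose. The part of these cells in the class II levels was not tested.

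**Figure D3:**
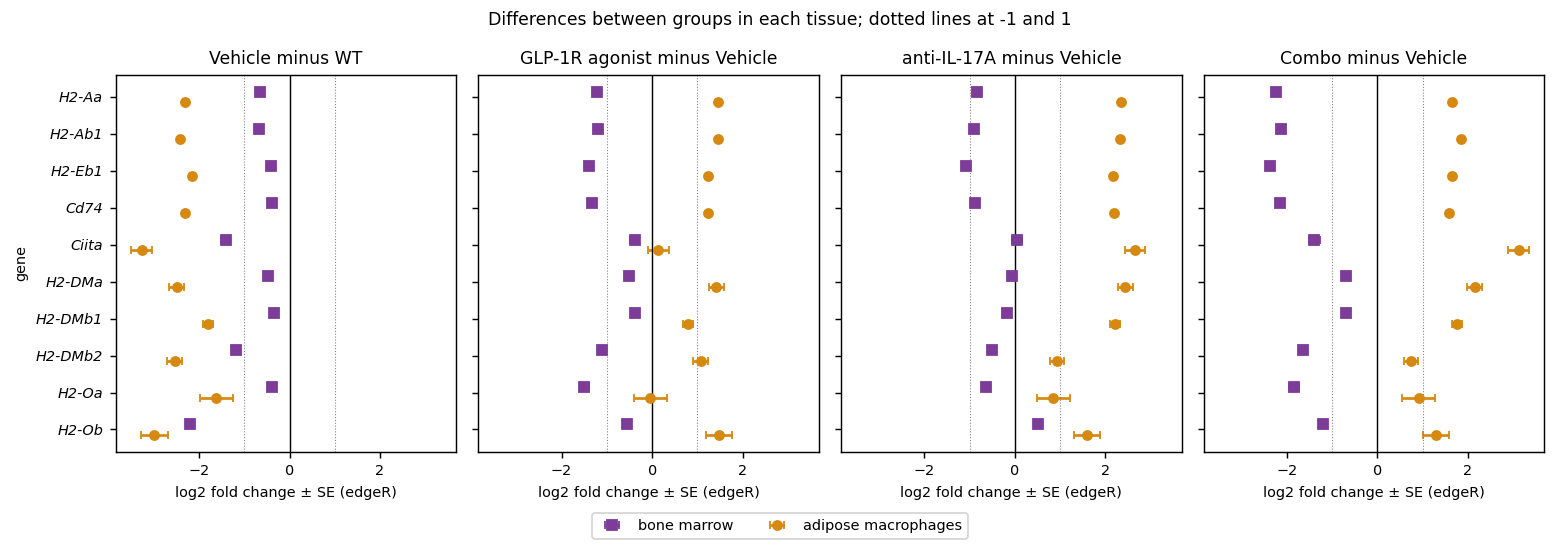
Log2 fold changes (edgeR, TMM) of the 10 genes in BM (squares) and ATMs (circles), with SE as whiskers, for Vehicle minus WT and for each treatment minus Vehicle. Dotted lines mark -1 and 1. In Combo minus Vehicle every gene lies left of 0 in BM (H2-Aa at -2.24) and right of 0 in ATMs (H2-Aa at 1.65).

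The 2 tissues differed in direction under treatment. In Combo against Vehicle all 10 genes were lower in BM and higher in ATMs by adjusted p. The difference between the tissues, tested as an interaction over the 13076 genes in both tables, ranged from 2.42 for H2-DMb2 to 4.56 ± 0.261 for Ciita on the log2 scale, and it passed the adjusted p threshold for all 10, where 55.1% of all genes passed. In Vehicle against WT both tissues were lower, and the fall was larger in ATMs for all 10 genes (56% of all genes passed). The smallest difference was for H2-Ob, at -0.79 ± 0.298 (adjusted p = 0.0265 by edgeR and 0.107 by limma voom).

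Ratios of counts within a library do not depend on scaling between libraries. H2-DMb2 reached 152, 158 and 154 counts for every 100 of H2-DMb1 in the WT BM libraries, 84.8 to 89.3 in Vehicle, 48.6 to 56.8 with the GLP-1R agonist, 68.1 to 69.1 with anti-IL-17A and 40 to 48.1 in Combo. In ATMs the ratio was 42.7 to 50.3 in WT, 25.7 to 32.1 in Vehicle, 31 to 34.6 with the GLP-1R agonist, 9.34 to 13.8 with anti-IL-17A and 11.2 to 16.1 in Combo. Counts of H2-DMb2 thus exceeded those of H2-DMb1 in WT BM alone, and in ATMs it was lowest in both groups that received the antibody. Shared sequence limits what this ratio can say of each gene.

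**Figure D4:**
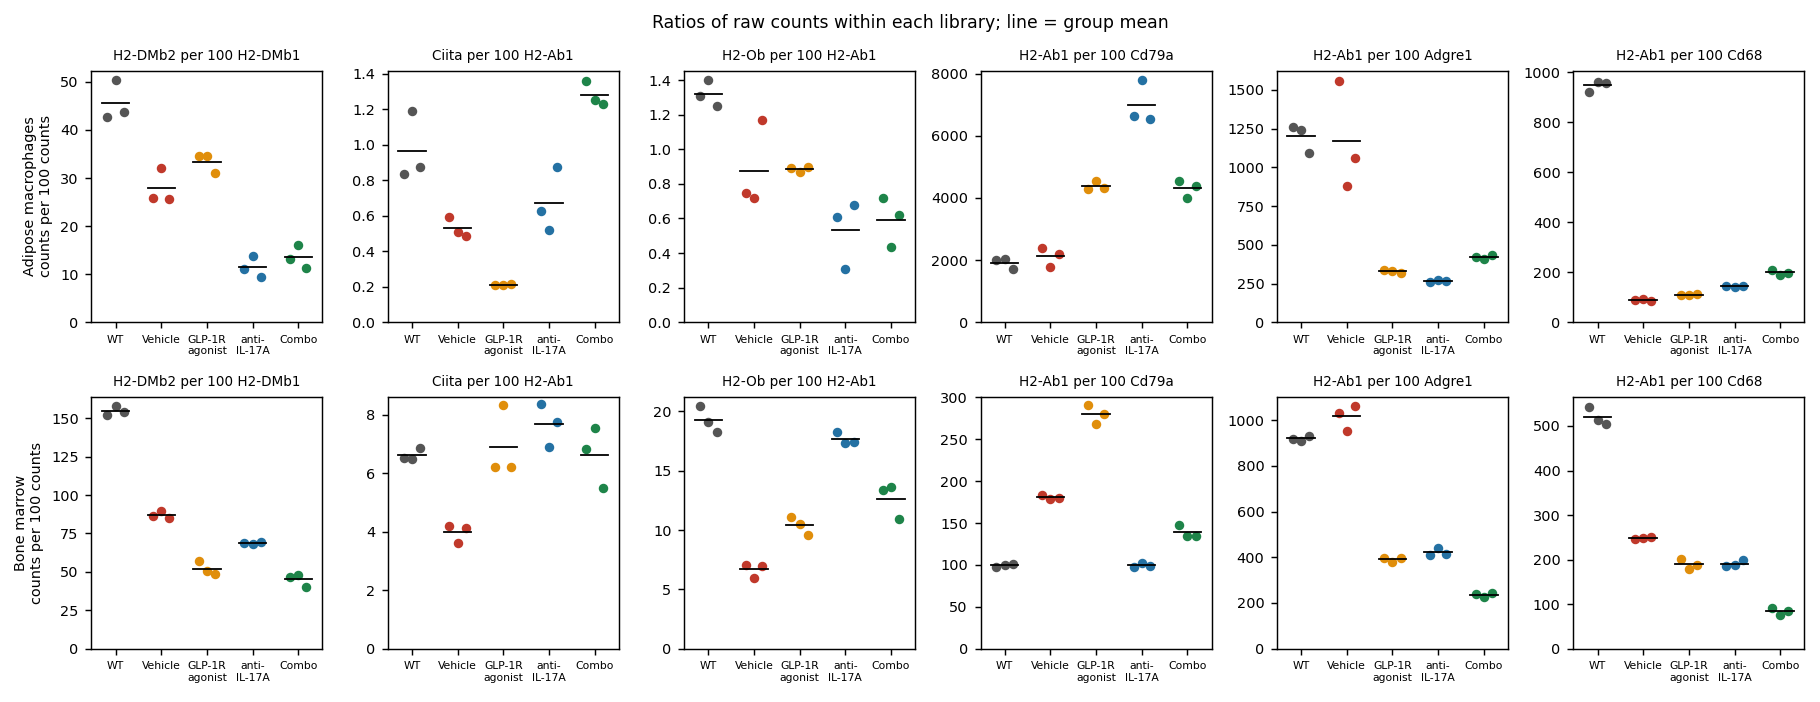
Ratios of raw counts within each library, ATMs above and BM below, as counts of the first gene per 100 counts of the second on linear axes from 0. Points are libraries and lines are group means. Ciita per 100 H2-Ab1 is lowest with the GLP-1R agonist in ATMs (0.209 to 0.216) and lowest in Vehicle in BM (3.62 to 4.19).

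Ciita per 100 counts of H2-Ab1 showed the gap between regulator and target. In ATMs it was 0.833 to 1.19 in WT, 0.488 to 0.591 in Vehicle, 0.209 to 0.216 with the GLP-1R agonist, 0.519 to 0.874 with anti-IL-17A and 1.23 to 1.36 in Combo. The agonist alone and Combo thus lay at the 2 ends. In BM the ratio was 6.49 to 6.86 in WT, 3.62 to 4.19 in Vehicle, and 5.49 to 8.38 over the treated libraries. The chain genes kept close proportions throughout: H2-Aa per 100 H2-Ab1 was 98.5 to 121 over all BM libraries and 55.5 to 69.2 over all ATM libraries, and Cd74 per 100 H2-Ab1 was 220 to 284 and 237 to 304.

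Set against markers of single cell types, the order of the groups for H2-Ab1 depended on the marker. Per 100 counts of the B cell receptor component Cd79a it was 97.9 to 101 in WT BM, 179 to 184 in Vehicle, 268 to 291 with the GLP-1R agonist, 97.5 to 102 with anti-IL-17A and 134 to 148 in Combo. Relative to this gene, H2-Ab1 was therefore lowest in WT and anti-IL-17A, although its CPM level was highest in WT. In ATMs, H2-Ab1 per 100 Adgre1 averaged 1200 in WT, 1170 in Vehicle, 329 with the GLP-1R agonist, 268 with anti-IL-17A and 422 in Combo. Per 100 Cd68 it averaged 948, 89, 110, 146 and 200. Per 100 C1qb, a complement gene of macrophages, it averaged 426, 88.2, 114, 136 and 186. For Vehicle against WT the ratio to Adgre1 overlapped (1090 to 1260 in WT and 882 to 1560 in Vehicle), and the ratios to Cd68 and C1qb did not. Adgre1 itself fell by 2.3 on the log2 scale in Vehicle, and Cd68 rose by 1.01.

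Levels were compared between genes per length of exon. The length was that of all annotated exons of a gene together, as 5380 bases for H2-Ob and 9535 for Ciita. The transcripts present in these cells may be shorter, so the order of the genes depends on this choice. Per kilobase, Cd74 was highest and H2-Ab1, H2-Eb1 and H2-Aa followed in WT of both tissues, at 501, 147, 136 and 111 CPM per kilobase in BM and 4050, 965, 513 and 400 in ATMs. The accessory chains were lower, at 13.5 to 31.2 in BM and 6.07 to 83.3 in ATMs. Ciita was lowest in WT of both tissues, at 2.62 ± 0.172 and 2.51 ± 0.538 CPM per kilobase (SD, n = 3), and these were close to each other while the classical chains and Cd74 stood higher in ATMs. Tables of the 2 tissues were scaled separately, so levels across tissues are set side by side without a test. In ATM Combo libraries H2-Ob, at 1.86, took the lowest place below Ciita at 2.27.

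The other genes of the pathway were read from lists. Of the 7 subunits of RFX, NF-Y and CREB that recruit CIITA (Rfx5, Rfxank, Rfxap, Nfya, Nfyb, Nfyc and Creb1), none was called by edgeR in BM in Vehicle against WT or in any treatment against Vehicle. Of the 28 values over these 4 BM comparisons, 21 passed the adjusted p threshold, with log2 fold changes from -0.59 to 0.48. In ATMs only Nfya was called, higher in Vehicle than in WT (log2 fold change 1.01 ± 0.192, adjusted p = 0.000352 by edgeR). The summed level of the 7 genes was 152 to 196 CPM over all ATM libraries and 277 to 380 over all BM libraries.

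In ATMs Irf1, a transcription factor of the interferon-gamma route to Ciita, moved opposite to class II in Vehicle. It rose from 390.1 CPM in WT to 1008 CPM in Vehicle (log2 fold change 1.37), while Ciita fell. It fell again with every treatment, by 2.04, 2.48 and 1.94 with the GLP-1R agonist, anti-IL-17A and Combo. Ifng, the cytokine gene itself, was at 15.26, 18.09 and 10.6 CPM in Vehicle ATMs and at 60.11, 60.16 and 57.43 in Combo, a rise of 2.01 ± 0.175 (adjusted p = 1.05e-07 by edgeR). T cell markers summed to 99.8 to 118 CPM in the first of these groups and 856 to 860 in the second. In BM Ifng averaged 0.7998 CPM in WT, 3.719 in Vehicle and 0.1191 in Combo.

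MHC class I genes moved opposite to class II in Vehicle against WT. All 7 of Nlrc5, the class I counterpart of Ciita, H2-K1, H2-D1, B2m, Tap1, Tap2 and Tapbp rose in Vehicle against WT in both tissues, with median log2 fold changes of 1.81 in ATMs and 1.71 in BM. In ATMs Nlrc5 went from 24.41 CPM in WT to 85.05 in Vehicle (log2 fold change 1.8 ± 0.138, adjusted p = 1.91e-08 by edgeR), as Ciita went from 23.95 to 2.474 CPM. With the GLP-1R agonist and anti-IL-17A all 7 fell against Vehicle in both tissues, and in Combo 6 of 7 did. Of all genes, 12.5% in ATMs and 9.44% in BM rose in Vehicle against WT. Between 8.46% and 13.1% fell in the treatment comparisons.

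**Figure D5:**
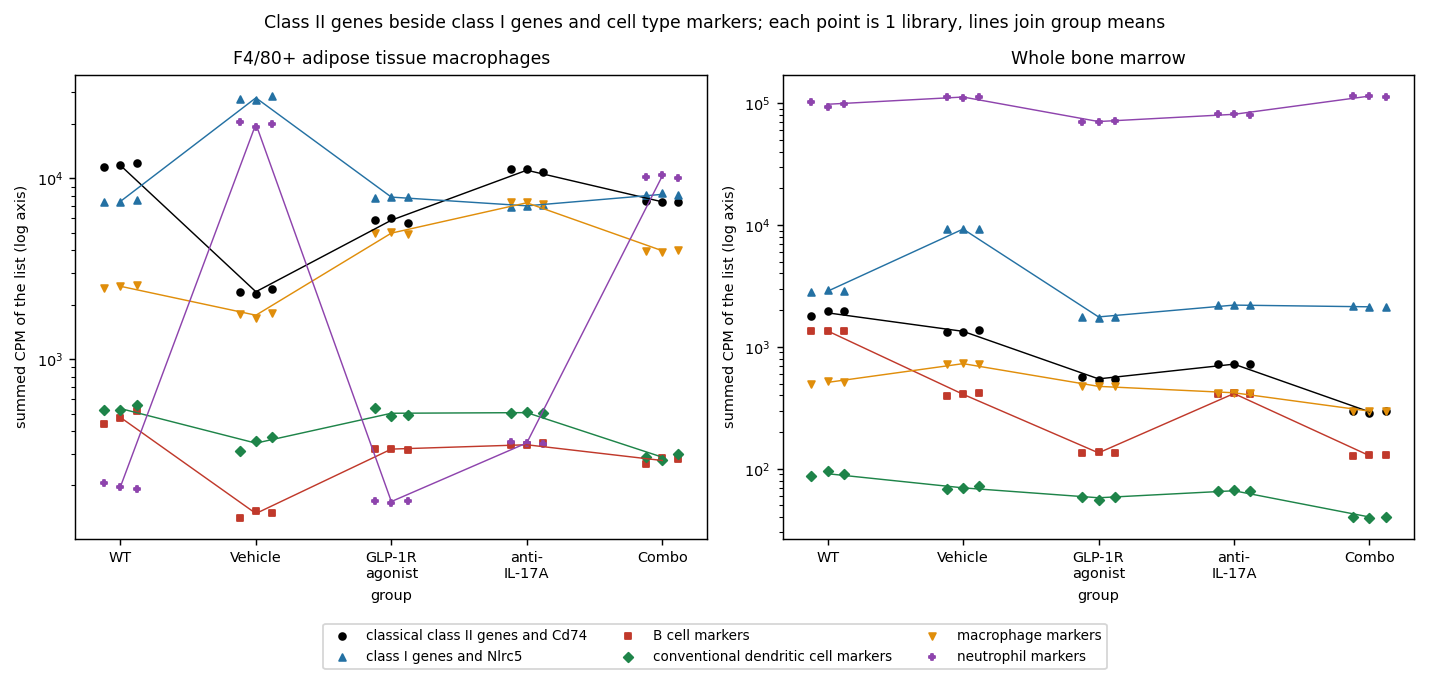
Summed CPM of the classical class II genes with Cd74, of the class I genes with Nlrc5 and of 4 marker lists by group, on log axes, in ATMs (left) and BM (right). Each point is 1 library and lines join group means. The class II sum in ATMs is lowest in Vehicle (2290 to 2440 CPM), where the class I sum (27300 to 28700) and the neutrophil sum (19300 to 20500) are highest.

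The processing enzymes followed neither pattern in full. Ctss, the cathepsin that trims CD74, averaged 435.4 CPM in WT ATMs, 807.4 in Vehicle, 1553 with the GLP-1R agonist, 2418 with anti-IL-17A and 1371 in Combo, so Vehicle was above WT by 0.89 on the log2 scale while Cd74 was below. In BM Ctss rose in Vehicle by 1.36 and fell by 1.82, 1.86 and 2.22 with the treatments. Sppl2a, the protease that clears the last CD74 fragment, rose in Vehicle ATMs by 1.7 and fell with each treatment (-1.7, -1.47 and -1.32). March1, a ubiquitin ligase that removes surface class II, rose in Vehicle ATMs by 1.43 ± 0.273, and March8, a related ligase, fell by 1.05 ± 0.178. Of the 7 listed genes, 2 rose and 1 fell in Vehicle ATMs, and 4 rose and 0 fell in Vehicle BM. Of all genes, 12.5% rose and 22.9% fell in the first comparison and 9.44% rose in the second, so the ATM counts lie near the background.

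Among costimulatory molecules Cd83, which protects surface class II from March1, moved as class II did in ATMs. It averaged 461.2 CPM in WT ATMs, 178.2 in Vehicle, 460.3 with the GLP-1R agonist, 597.7 with anti-IL-17A and 373.1 in Combo, falling by 1.37 and rising by 1.37, 1.75 and 1.07. In BM it averaged 21.05, 14.75, 4.911, 5.422 and 2.146 CPM and fell with each treatment. Cd80 and Cd40, which engage T cells beside the class II and peptide complex, rose in Vehicle ATMs (1.85 and 2.52) and fell with each treatment. H2-Eb2, the class II region gene listed with H2-Ea, fell in BM against Vehicle with the GLP-1R agonist (-1.86 ± 0.138) and Combo (-2.55 ± 0.153). It was not called in ATMs, where it was at most 5.37 CPM.

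The genes outside the 10 whose log2 CPM was closest to the classical chains and Cd74, by Pearson's r over the 15 libraries of a tissue, were Plekho1, Herpud1 and Dusp2 (each 0.988), Cd83 (0.987) and Rnf122 (0.985) in BM. In ATMs they were Cuzd1 (0.984), Crip1 and Arhgap18 (0.981), Gmcl1 (0.98) and Gkn3 (0.979). For Ciita they were Dennd5b (0.981), the B cell chemokine receptor Cxcr5 (0.98), Apol11b (0.978), Cecr2 and Serinc5 (0.976) in BM, and Dguok (0.96), Ift52 (0.958), Timm17b (0.955), Ech1 (0.954) and Lamtor2 (0.952) in ATMs. Within the 10 genes, Ciita followed the mean of the classical chains and Cd74 with an r of 0.918 in BM and 0.811 in ATMs. H2-DMb2 followed Ciita with 0.959 in BM and 0.559 in ATMs. The libraries fall into 5 groups and share their scaling, so these are descriptions of group patterns.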

How the data were processed

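Bulk polyA RNA-seq was measured in 15 BM and 15 ATM libraries. The authors aligned the unstranded paired-end reads to mm10 (GRCm38) with STAR 2.7.2a and counted them per gene with featureCounts 2.0.1, and they deposited raw counts in 1 table per tissue, with genes of very low count already left out. Totals per library give the depth, and counting error alone was larger than the observed spread of a member in a group in 14 of 50 cases in BM and 4 of 50 in ATMs. Replicates are separate samples per the labels, and no libraries agreed within sampling noise (chi-square per degree of freedom 2.04 to 39 in BM and 12.3 to 28.3 in ATMs). Spread beyond sampling noise does not by itself show that the libraries are separate mice.

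Counts were tested with edgeR 4.0.16 in R 4.3.3 (robust quasi-likelihood test, TMM scaling, filterByExpr, which removed 0 genes, and all 15 libraries of a tissue in 1 fit), with p-values adjusted by Benjamini-Hochberg over all genes of the table. The spread over all genes was 3.506% in BM and 32.48% in ATMs as a common coefficient of biological variation. The tissue difference was an interaction term in 1 fit over the genes of both tables, and limma 3.58.1 (voom) was its alternative. DESeq2 1.42.0, other scalings and filters, a replicate block and leaving out single libraries were the alternatives for the rest. The scripts were tested on simulated data with known changes. Exon lengths and overlaps came from GENCODE annotation of GRCm38, promoter windows from RefSeq. Levels are shown with Python 3.11.15, pandas 2.3.3 and matplotlib 3.10.9.

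The members and gene lists were chosen with earlier results of these data known. Besides the 10 members, the genes named were the called genes with the largest and smallest log2 fold change of a list in Vehicle against WT and Combo against Vehicle, list genes whose value stands beside a member's, and the 5 genes closest in pattern to Ciita and to the classical chains with Cd74. Not every gene this rule picks from the marker lists is printed. The IFN-gamma, processing, costimulatory and class I genes come from these lists. Some values of the interferon-gamma list are not reported here.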

Additional observations from a re-analysis of the deposited data

Results flagged for a closer look

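Each of the 10 genes differed between the tissues in its response, by edgeR's interaction test on the log2 scale with ATMs minus BM as the direction, where 56% of all genes passed in Vehicle against WT and 55.1% in Combo against Vehicle. In Vehicle against WT the differences were -1.86 for Ciita, -1.66 for H2-Aa, -1.73 for H2-Ab1, -1.74 for H2-Eb1, -1.92 for Cd74, -2.01 for H2-DMa, -1.46 for H2-DMb1, -1.36 for H2-DMb2, -1.23 for H2-Oa and -0.79 for H2-Ob, the last of which did not pass with limma voom (adjusted p = 0.107). All 10 genes were lower in Vehicle in both tissues, and the fall was larger in ATMs.

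In Combo against Vehicle the differences were 4.56 for Ciita, 3.93 for H2-Aa, 4.03 for H2-Ab1, 4.05 for H2-Eb1, 3.77 for Cd74, 2.89 for H2-DMa, 2.5 for H2-DMb1, 2.42 for H2-DMb2, 2.79 for H2-Oa and 2.55 for H2-Ob. Here the direction itself differed, lower in BM and higher in ATMs. The tissue cannot be told apart from the sort, since ATMs were sorted and BM cells were not. The 2 sets of differences share the Vehicle libraries.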

How the results depend on the processing

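Of 1300 single-gene values recomputed under the alternatives, 1261 kept their direction and their side of the threshold, 34 newly passed it and 5 reversed. The filter had removed 0 genes, so the 100 values with no low-count filter repeat the main fit and could not differ. Values without a fold limit reuse the main p-values and could only stay the same (72) or newly pass (28). Without a limit on the fold change, 10 genes were lower in BM Vehicle against WT, 10 with the GLP-1R agonist and 8 changed with anti-IL-17A against Vehicle in BM, and 6 were lower in ATM Combo against WT. A minimum of 10 counts in every library and a fit of only the 6 libraries compared each left all 100 gene verdicts as they were. DESeq2 and its size factors in edgeR did so too. Leaving out 1 library moved the number of genes called in ATMs between 8 and 9 with anti-IL-17A and between 8 and 9 in Combo, against Vehicle, and it left the other counts at 3, 6, 1, 8 and 10 in BM and 10, 7 and 2 in ATMs. H2-DMb2 passed the limit with anti-IL-17A at 1.03 without Vehicle replicate 1 and 1.06 without anti-IL-17A replicate 3, and H2-Oa at 1.04 without Vehicle replicate 2 and 1.14 without anti-IL-17A replicate 2. In Combo H2-Oa passed it at 1.08 without Vehicle replicate 2 and 1.05 without Combo replicate 2. The 5 reversals were all of values near 0 that had not passed the test: Ciita in BM with anti-IL-17A against Vehicle (-0.02 without Vehicle replicate 2, -0.01 without anti-IL-17A replicate 1), Ciita in ATM Combo against WT (0.04 without WT replicate 2) and H2-Oa in ATMs with the GLP-1R agonist against Vehicle (0.13 without Vehicle replicate 2, 0.18 without GLP-1R agonist replicate 2). Over all single libraries left out, these 3 values ranged from -0.02 to 0.12, from -0.26 to 0.04 and from -0.23 to 0.18. With limma voom the tissue difference passed for 9 of the 10 genes in Vehicle against WT, where H2-Ob had an adjusted p of 0.107, and for 10 in Combo against Vehicle.

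Within a tissue, samples with the same replicate number did not deviate together between groups (correlations from -0.03 to 0.05), so no pairing by number was seen there. Whether BM and ATM libraries of the same group and number come from 1 mouse was not checked. The tissue interaction treated all libraries as independent. With the replicate number as a block, the counts of genes called stayed at 3, 6, 1, 8 and 10 in BM and 10, 7, 8, 8 and 2 in ATMs, and no call changed.

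The limits are 3 libraries a group, raw counts without strand, and counts of Ciita and H2-Oa down to 51 in an ATM library. Reads that fit H2-DMb1 and H2-DMb2 equally were left out, and reads on overlapping genes count for each. Neither protein nor surface class II was measured.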

Other observations

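Fcer2a, which encodes CD23 of mature B cells, was the B cell marker with the largest fall in both tissues. In BM it averaged 40.17 CPM in WT and 0.8766 in Vehicle, beside H2-Ob at 72.71 and 15.79 CPM, and with anti-IL-17A it rose over Vehicle by 3.13 on the log2 scale. Blnk, a signalling adaptor of the B cell receptor, fell less, from 68.34 to 31.04 CPM.

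Macrophage and monocyte markers split in Vehicle ATMs. Mrc1, the mannose receptor of resident macrophages, averaged 152.9 CPM in WT and 7.913 in Vehicle, and F13a1 averaged 731.2 and 8.296 CPM. Fcgr1, which encodes the high-affinity IgG receptor CD64, went the other way, from 12.47 to 163.8 CPM, and Ms4a4c from 15.97 to 329.1 CPM. Both fell in Combo, to 37.58 and 21.71 CPM. In BM, Ccr7, which guides dendritic cells to lymph nodes, fell from 24.15 CPM in Vehicle to 2.05 in Combo. Cd209a of the same list rose from 0.02056 to 0.6379 CPM. No Vehicle library held more than 3 counts of Cd209a, so its rise is given only as at least 6.52-fold. Of the 9 listed dendritic cell markers 1 rose and 3 fell, where 11.1% of all BM genes fell. The costimulatory gene Cd86 had risen in Vehicle from 15.26 to 51.3 CPM.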
